A study of Mus musculus with 16 samples.

Results

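Of 16 mouse osteosarcomas profiled by RNA sequencing, 4 carried the red cell gene *Alas2* at 50 or more CPM, the count of a gene scaled to a common total of all counts on genes. These 4, called *Alas2*-high here, were Zelda, N43 spine, N25 lung and N43 pelvis, and the other 12 tumours were all below that level. The members were chosen by the measured count of *Alas2* and not by a label of the samples. Its question is which blood, marrow, vessel and stromal genes go with the erythroid signal once genotype is accounted for.

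All mice carried *OsxCreERT2*, a Cre recombinase activated by tamoxifen and driven by the promoter of *Osterix*, together with floxed *Trp53* and *Rb1*. Cells that do not express *Osterix* keep these genes. The 8 KO tumours came from 8 mice that also carried floxed *Arid1a* on both alleles, and the 8 WT tumours came from 4 mice without it. Tamoxifen was given once the mice were 1 month old, at 400 ug/g, and the mice, of both sexes, were older than 6 months. Zelda is labelled KO, with no body site. The spine and pelvis tumours of mouse N43 and the tumour of mouse N25, which is labelled lung, are WT. The study's text describes no metastases in mice with intact *Arid1a*, so what the lung label of N25 means is not settled by the sources used here. The *Alas2*-high tumours therefore came from 3 mice, 1 KO and 2 WT. The other 12 tumours came from 9 mice, of which 7 were KO (Massa, Medusa, Montana, Ohio, Prince, Grilka and Oregon), and comprised 4 WT tumours of N42 and 1 of N215.

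Red cells are made in the marrow from progenitors that, under *Gata1* and *Klf1*, switch on haem synthesis, globins and the proteins of the membrane skeleton. Transcription factor genes are most active early in this series, while reticulocytes, the young red cells that enter the blood, still hold RNA of late genes. *Alas2* makes the erythroid form of the first enzyme of haem synthesis, *Hbb-bs* a beta-globin and *Slc4a1* the anion exchanger band 3. In these bulk tumours, more cells of a type and more RNA per cell cannot be told apart.

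*Alas2* lies at chrX:150547375-150570638 on the plus strand (GRCm38), *Slc4a1* at chr11:102348824-102366203 and *Hbb-bs* at chr7:103826534-103828096, both on the minus strand. The letters GATAA, the core recognised by GATA factors such as *Gata1*, were searched on both strands (as GATAA and TTATC) in the 250 bases before the RefSeq gene start (GRCm38.p6). They were found for 28 of the 52 erythroid genes with an entry (53.8%), against 6883 of 27025 genes in all (25.5%). A match is a description of the letters and not a binding site. The windows of *Alas2*, of *Epb42* (protein 4.2 of the red cell membrane) and of *Kel* (the Kell blood group protein) are shown because these genes separate the 4 tumours below, with the searched letters in capitals and each sequence written in the direction of the gene.
Alas2, chrX:150547167-150547416, plus strand: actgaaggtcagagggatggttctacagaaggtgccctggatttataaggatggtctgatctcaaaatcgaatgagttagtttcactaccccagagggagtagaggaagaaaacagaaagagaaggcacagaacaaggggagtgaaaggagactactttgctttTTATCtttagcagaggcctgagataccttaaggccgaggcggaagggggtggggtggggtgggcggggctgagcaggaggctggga
Epb42, chr2:121036878-121037127, minus strand: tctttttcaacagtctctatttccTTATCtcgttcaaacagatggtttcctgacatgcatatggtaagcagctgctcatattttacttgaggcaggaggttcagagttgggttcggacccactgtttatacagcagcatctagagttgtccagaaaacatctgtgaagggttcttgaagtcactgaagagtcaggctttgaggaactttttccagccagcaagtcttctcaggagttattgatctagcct
Kel, chr6:41704326-41704575, minus strand: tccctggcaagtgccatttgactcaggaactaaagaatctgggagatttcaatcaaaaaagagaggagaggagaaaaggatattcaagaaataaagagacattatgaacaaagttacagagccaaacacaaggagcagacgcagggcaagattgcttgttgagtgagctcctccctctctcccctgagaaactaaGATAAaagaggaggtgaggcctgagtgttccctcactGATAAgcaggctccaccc
*Alas2* and *Epb42* held 1 match each, and *Kel* held 2.

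The counts on genes were 10036373 to 16340727 per *Alas2*-high tumour and 1109487 to 16962329 in the other 12. The shallowest libraries were Massa and Grilka, in which 3 counts correspond to 6.31 and 3.87 normalized CPM, so a low level there is poorly resolved. Unless stated otherwise, levels are CPM of the library size normalized by TMM (trimmed mean of M-values), and they compare tumours, not genes, because they are not per length. Reads of *Arid1a*, which need not be lost when a part of the gene is deleted, gave 101 to 259 CPM in the KO tumours and 127 to 233 CPM in the WT tumours, so the ranges overlapped. Tissue genes also differed. Genes of lung epithelium summed to 28570 CPM in N25 lung and 11540 CPM in Massa, and to at most 76.3 CPM elsewhere. Genes of liver summed to 1704 CPM in Zelda and to at most 57.4 CPM in the other 15. Genes of skeletal muscle summed to 75780 CPM in Montana and 130500 CPM in Oregon, to 2624 CPM in N43 spine and 7565 CPM in N43 pelvis, and to 5375 CPM in N215 R hind limb. Genes of salivary gland summed to 112100 CPM in Prince and to at most 468 CPM elsewhere. The part of these tissues in the results was not tested.

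**Figure D1:**
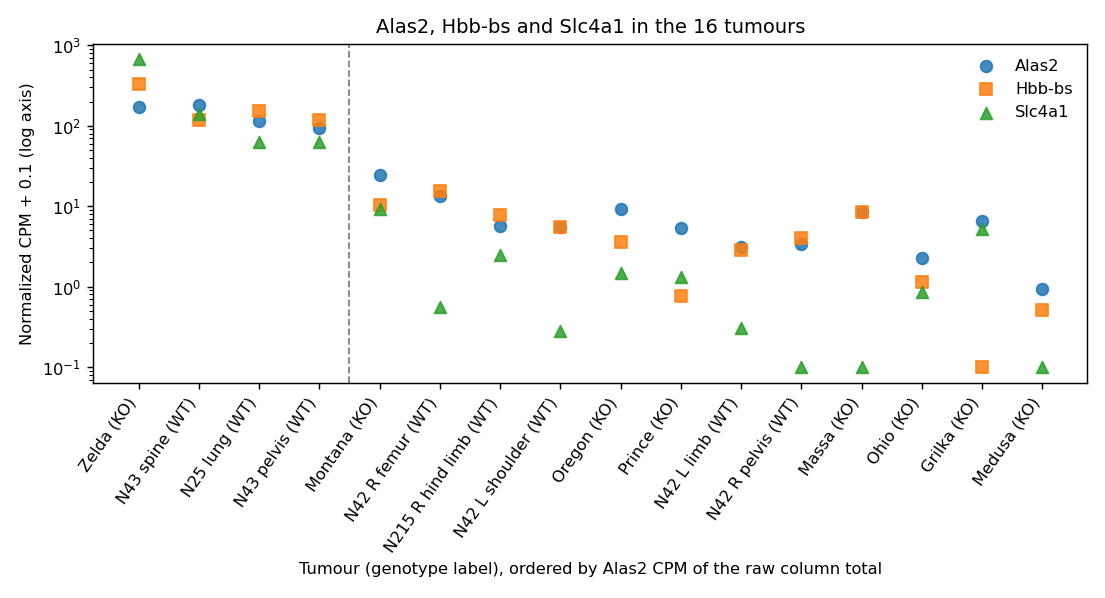
Normalized CPM of Alas2, Hbb-bs and Slc4a1 plus 0.1 (log axis) in each of the 16 tumours, with the genotype label in parentheses and the rule's limit as a dashed line. Each point is 1 tumour. All 3 genes are higher in the 4 tumours left of the line than in any of the 12 to its right.

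On the raw column total that the rule used, *Alas2* was at 258 CPM in Zelda, 210 CPM in N43 spine, 155 CPM in N25 lung and 114 CPM in N43 pelvis. Just outside the rule were Montana at 19.8 CPM and N42 R femur at 15.4 CPM. The other 10 ranged from 0.819 to 6.41 CPM, so the gap between the groups was wide. After normalization, *Alas2* was at 173 CPM in Zelda, 183 CPM in N43 spine, 114.5 CPM in N25 lung and 93.4 CPM in N43 pelvis, and at 0.838 to 24.7 CPM in the others. *Hbb-bs* was at 330.3, 117, 152 and 118 CPM in the same order, against a highest value of 15.5 CPM in the others. *Slc4a1* was at 669, 138, 62.9 and 62.5 CPM, against a highest value of 9.23 CPM. These 3 genes mark the split, and their values are a description with no test.

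A list of 77 erythroid genes was set aside from all tests. Of these, 69 were in the table, and in 21 of them all 4 tumours lay above all 12 others. Zelda was the highest of the 16 tumours for 57 of the 69. The 4 tumours were alike in *Alas2*, whose highest level was 1.96 times the lowest, in *Bpgm*, which makes the red cell enzyme for 2,3-bisphosphoglycerate (2.01 times), and in *Hbb-bs* (2.81 times).

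They were unlike in genes of erythroid precursors. *Klf1* was at 23.7 CPM in Zelda, 0.885 CPM in N43 spine, 0.253 CPM in N25 lung and 0.503 CPM in N43 pelvis, against at most 0.209 CPM in the others. *Gata1*, the master regulator of the lineage, was at 16.4, 1.27, 1.45 and 0.352 CPM, against at most 0.545 CPM. N43 pelvis thus lay inside the range of the others for *Gata1*. *Car1*, the carbonic anhydrase of red cells, was at 78.0 CPM in Zelda and below 1 CPM in the other 3. *Hemgn*, a nuclear factor of blood cell precursors, was at 111 CPM in Zelda and at 0.754 to 1.88 CPM in the other 3.

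Genes of the red cell membrane followed. *Epb42* was at 101.5 CPM in Zelda, 13.6 CPM in N43 spine, 3.42 CPM in N25 lung and 4.42 CPM in N43 pelvis, and at most 0.573 CPM in the others. *Kel* was at 97.2, 4.15, 1.20 and 2.16 CPM against at most 0.112 CPM. The groups did not overlap in either gene, but Zelda stood well above the other 3 tumours.

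**Figure D2:**
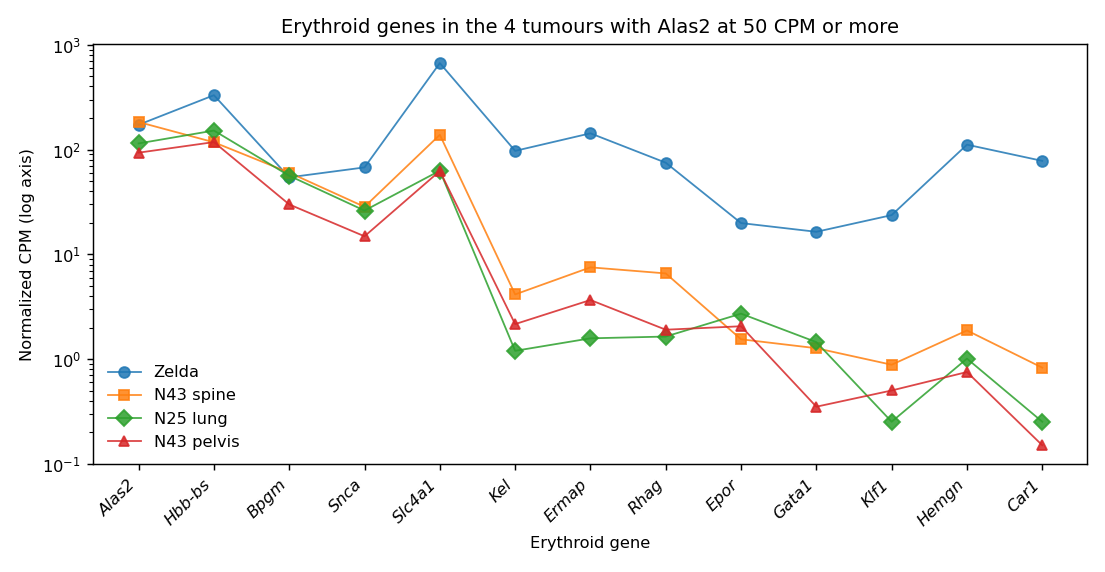
Normalized CPM (log axis) of 13 erythroid genes in the 4 Alas2-high tumours, 1 line per tumour. The lines lie close together for Alas2, Hbb-bs and Bpgm and part for Klf1, Hemgn and Car1, where Zelda is at 23.7, 111 and 78.0 CPM and the other 3 are below 2 CPM.

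Other members of the list did not follow the split. *Sptb* and *Ank1*, erythroid spectrin and ankyrin genes that skeletal muscle also expresses, were highest in Montana (769.5 CPM) and Oregon (449.5 CPM), the tumours with the highest muscle sums. *Tfrc*, the transferrin receptor used by all dividing cells, was at 711 CPM in Zelda and 354 CPM in N43 pelvis but at 56.1 CPM in N43 spine, below the median of the others (93.8 CPM). The alpha-globin genes *Hba-a1* and *Hba-a2* stayed at or below 5.74 CPM in all 16 tumours. They are near-identical copies between which reads can be split or lost in counting, so their values are uncertain, and the same holds for *Hbb-bs* and *Hbb-bt*. The label of erythroid marrow thus had erythroid precursor genes behind it in Zelda, but these genes do not name the organ. Zelda has no body site label, and genes of liver summed to 1704 CPM in it. Whether its precursors were those of marrow was not tested. In N43 spine, N25 lung and N43 pelvis the precursor genes named above were far lower than in Zelda, so the label has less behind it there. *Klf1* and *Hemgn* still lay above all tumours outside the rule, while *Gata1* and *Car1* did not in each of them. Whether this RNA came from precursors or from young red cells of the blood was not tested.

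With genotype as a covariate, edgeR's quasi-likelihood test compared the 4 tumours with the other 12 over 17468 genes, 17412 of them outside the erythroid list. Since the groups were formed on *Alas2*, the p-values describe how far genes vary with the split and not the effect of a treatment. After Benjamini-Hochberg adjustment, 33 genes (0.190%) were higher at an adjusted p-value under 0.05 and 0 were lower. At an unadjusted p-value under 0.05, 847 genes were higher (4.86%) and 212 were lower (1.22%). DESeq2 called 396 higher and 19 lower at an adjusted p-value under 0.05, the level of all its calls given here. Of the 33 genes, 28 were highest in Zelda, 3 in N43 spine and 2 in N25 lung. Without Zelda, no gene passed the threshold (919 higher and 188 lower at an unadjusted p-value under 0.05), although all 33 kept a higher estimate and 32 had an unadjusted p-value under 0.05. These genes had been chosen with Zelda included, so that count is a description. Only 16 of the 33 had 10 or more counts in at least 4 of the other 12 tumours. The remaining 17 fell short of this in the others, so counts in the *Alas2*-high tumours could decide their entry to the test. Such a choice favours a difference, and their calls are a description. Among these 17 were *Apol11b*, *Cd177*, *Pou2af1*, *Ltf*, *Ighd*, *Tubb1*, *Ppbp*, *Trbc2*, *H2-Ob*, *Camp* and *Mmp8*.

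In 31 of all 17412 genes (0.178%) the 4 tumours lay above all 12 others, and in 13 genes (0.0747%) they lay below. Among the 33, 7 had groups that did not overlap, namely *Apol11b*, *Cd177*, *Ltf*, *Tubb1*, *St6gal1*, *Camp* and the transcript 4930412C18Rik. The smallest p-value was that of *Apol11b*, an apolipoprotein L gene, at 72.0 CPM in Zelda, 11.4 CPM in N43 spine, 17.1 CPM in N25 lung and 6.64 CPM in N43 pelvis and at most 2.10 CPM in the others. Its log2 difference was 5.50 (SE 0.65, edgeR adjusted p = 0.000466). *St6gal1*, which adds sialic acid to glycoproteins, was at 39.3, 91.8, 50.8 and 48.8 CPM against 4.21 to 34.9 CPM, and was one of the few called genes higher in N43 spine than in Zelda (log2 difference 1.52, SE 0.27, edgeR adjusted p = 0.0206).

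Tumours of 1 mouse are not independent, and N43 gave 2 of the 4 and N42 4 of the 12. With the mouse as a random effect in limma-voom, 11 of the 33 genes passed the threshold, and with counts summed per mouse in edgeR, 7 of the 28 that could be tested did. *Apol11b*, *Cd177* and the pseudogene *Gm4759* passed in both (limma-voom adjusted p = 0.00291, 0.0424 and 0.0466, per-mouse edgeR adjusted p = 0.0160, 0.0435 and 0.0275). Both fits repeated the count filter by group. The limit given above for genes with too few counts in the others, *Apol11b* and *Cd177* among them, thus holds here too. *St6gal1*, *Tubb1*, *Il7r*, *H2-Ob* and *Slc40a1* passed in neither, with limma-voom adjusted p = 0.208, 0.0784, 0.0831, 0.0831 and 0.729 and per-mouse edgeR adjusted p = 0.174, 0.0683, 0.0923, 0.0715 and 0.174. *Bank1*, *Ighd*, *F5* and *Traf3ip3* passed per mouse but not with the random effect (limma-voom adjusted p = 0.117, 0.0799, 0.492 and 0.0831). *Ltf*, *Ppbp*, *Ngp*, *E2f2*, *Fcho1* and *Sowaha* passed with the random effect but not per mouse (edgeR adjusted p = 0.0538, 0.111, 0.208, 0.119, 0.0990 and 0.276). *Pou2af1* and *Trbc2* passed with the random effect (limma-voom adjusted p = 0.0226 and 0.0248) and could not be tested per mouse. *Camp* and *Mmp8* did not pass with the random effect (limma-voom adjusted p = 0.0967 and 0.0567).

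**Figure D3:**
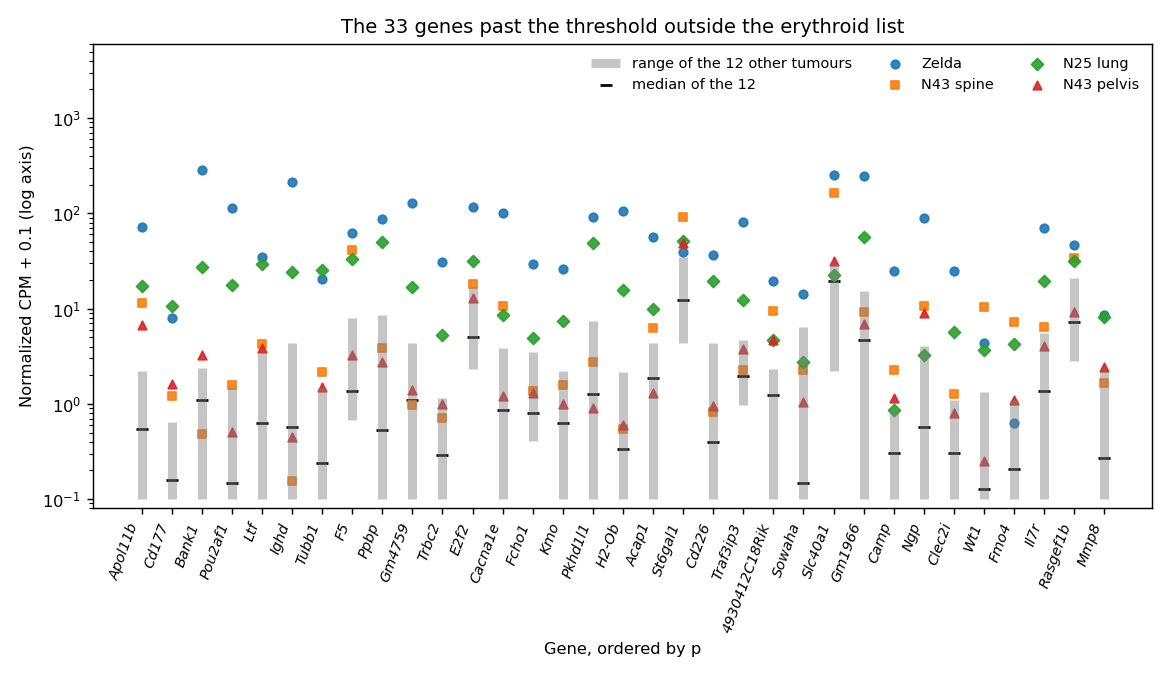
Normalized CPM plus 0.1 (log axis) of the 33 genes past the threshold outside the erythroid list, ordered by p-value. Coloured points are the 4 Alas2-high tumours, and grey bars give the range and black dashes the median of the 12 others. Zelda has the highest point for 28 genes, while the tumours of N43 often lie inside the grey range.

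Neutrophil granule genes were among those called. Of 24 genes in the list of neutrophils and their precursors, 13 were tested, 12 had a positive and 1 a negative log2 difference, and 5 passed the threshold, *Cd177*, *Ltf*, *Camp*, *Ngp* and *Mmp8*. Of these 5, *Ngp* alone had enough counts in the other 12 tumours to enter the test through them. The median log2 difference was 4.16 over the 13 and 3.21 over the 7 that passed the count minimum in the others alone, against -0.0074 over all tested genes. *Cd177*, a surface protein of neutrophils, was at 7.88 CPM in Zelda, 1.11 CPM in N43 spine, 10.4 CPM in N25 lung and 1.51 CPM in N43 pelvis. None of the other 12 tumours held more than 3 counts of it, and the pooled level of the 4 was 16.03 times the level of 3 counts per library in the 12 (edgeR adjusted p = 0.00206). *Ltf*, the iron-binding lactoferrin of granules, was at 35.0, 4.15, 29.2 and 3.72 CPM, against at most 3.36 CPM in the others (log2 difference 5.14, SE 0.74, edgeR adjusted p = 0.00327). Zelda and N25 lung thus stood far above the others, while the N43 tumours lay just above them.

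The granule genes differed between Zelda and N25 lung. *Camp*, the cathelicidin of secondary granules, was at 25.03 CPM in Zelda, 2.16 CPM in N43 spine, 1.06 CPM in N43 pelvis and 0.759 CPM in N25 lung (log2 difference 4.20, SE 0.81, edgeR adjusted p = 0.0343). *Ngp*, another secondary granule protein, was at 89.3, 10.5 and 8.85 CPM in Zelda, N43 spine and N43 pelvis, and at 3.16 CPM in N25 lung, inside the range of the others. The primary granule genes *Elane*, *Mpo* and *Prtn3*, which are active in promyelocytes, were at 5.94, 26.9 and 6.34 CPM in Zelda. In N25 lung *Elane* was at 0 counts and *Mpo* at 0.190 CPM. Genes of mature neutrophils were present in both, with *S100a8* at 99.3 CPM in Zelda and 69.7 CPM in N25 lung, and *Cxcr2* at 4.74 and 17.7 CPM. In N43 spine and pelvis, *S100a8* was at 6.08 and 4.17 CPM, and Massa, among the others, reached 48.4 CPM. *S100a9*, its partner, did not pass the threshold (log2 difference 4.69, SE 1.18, edgeR adjusted p = 0.139).

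Platelet genes followed. Of 16 genes in the list of megakaryocytes and platelets, 11 were tested, all 11 had a positive log2 difference with a median of 2.33, and *Tubb1* and *Ppbp* passed the threshold. Neither had enough counts in the other 12 tumours alone, and over the 8 genes that did the median was 2.17. *Tubb1*, the beta-tubulin of platelets, was at 20.2 CPM in Zelda, 2.05 CPM in N43 spine, 25.5 CPM in N25 lung and 1.41 CPM in N43 pelvis and at most 1.36 CPM in the others (log2 difference 5.58, SE 0.87, edgeR adjusted p = 0.00703). *Ppbp*, a chemokine stored in platelets, was at 87.3, 3.76, 50.3 and 2.66 CPM against at most 8.41 CPM, so the N43 tumours lay inside the range of the others (log2 difference 5.64, SE 0.89, edgeR adjusted p = 0.00754). Outside the lists, *F5*, coagulation factor V, was at 62.0, 41.2, 32.8 and 3.17 CPM against at most 7.95 CPM (log2 difference 4.12, SE 0.65, edgeR adjusted p = 0.00754). *Plek*, a platelet kinase substrate shared with white cells, was at 206, 33.1, 109.9 and 38.1 CPM against at most 40.1 CPM and missed the threshold (edgeR adjusted p = 0.0712).

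Most B cell genes separated Zelda and N25 lung from the N43 tumours. An exception was *Ebf1*, the tested member with the highest mean CPM. It was at 168, 50.7, 25.7 and 150 CPM in Zelda, N43 spine, N25 lung and N43 pelvis, against 2.10 to 190 CPM. Its log2 difference was 0.15 (SE 0.65), and it did not pass the threshold. Of 19 genes of the list in the table, 9 were tested, all 9 had a positive log2 difference with a median of 3.77, and *Bank1* and *Pou2af1* passed the threshold. Of these, *Bank1* was also above the count minimum in the others alone, as were 8 of the 9 genes (median 3.76). *Bank1*, a scaffold of B cell receptor signalling, was at 283 CPM in Zelda and 27.3 CPM in N25 lung, but at 0.387 CPM in N43 spine and 3.17 CPM in N43 pelvis, and at most 2.31 CPM in the others (log2 difference 5.71, SE 0.78, edgeR adjusted p = 0.00206). *Pou2af1*, a coactivator of immunoglobulin genes, was at 113, 17.6, 1.49 and 0.402 CPM in the same order (log2 difference 6.79, SE 0.93, edgeR adjusted p = 0.00211). *Ighd*, the constant region of IgD on naive B cells, which was not in the list, was at 212 CPM in Zelda and 24.2 CPM in N25 lung, and at 0.0553 and 0.352 CPM in N43 spine and pelvis (edgeR adjusted p = 0.00359). The called result of these genes thus rested on Zelda and N25 lung, and with the N43 tumours as the only *Alas2*-high samples the list's median log2 difference was 0.25.

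In Zelda, genes of mature B cells were high. *Cr2*, the complement receptor of follicular and marginal zone B cells, was at 492 CPM, *Ms4a1* (CD20) at 214 CPM and *Pax5* at 124 CPM. *Dntt*, the enzyme that adds bases to immunoglobulin genes in early B cells of the marrow, was at 0.467 CPM, and *Vpreb3*, another gene of early B cells, at 1.40 CPM. In N25 lung *Vpreb3* was at 9.04 CPM and *Dntt* at 0 counts. In both N43 tumours *Ms4a1*, *Pax5* and *Cr2* were at most 0.251 CPM.

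Most T cell genes were again higher in Zelda and N25 lung than in the N43 tumours, with *Cd4*, *Cd5* and *Cd28* as exceptions. Of 21 genes of the T and NK cell list, 10 were tested, all 10 had a positive log2 difference with a median of 2.66, and *Trbc2* and *Il7r* passed the threshold. Of these, *Il7r* was also above the count minimum in the others alone, as were 8 of the 10 genes (median 2.27). *Trbc2*, a constant region of the T cell receptor beta chain, was at 30.6 CPM in Zelda, 0.608 CPM in N43 spine, 5.19 CPM in N25 lung and 0.905 CPM in N43 pelvis, and at most 1.07 CPM in the others (log2 difference 4.38, SE 0.74, edgeR adjusted p = 0.0138). *Il7r*, the interleukin-7 receptor of lymphocytes, was at 69.5, 6.36, 19.5 and 3.92 CPM against at most 5.48 CPM (log2 difference 4.06, SE 0.82, edgeR adjusted p = 0.0464). *Cd4*, which macrophages can also express, was at 32.4 CPM in Zelda and at 2.05 to 5.28 CPM in the other 3, inside the range of the others up to 11.9 CPM, and did not pass.

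Counted over every gene of a list in the table, with no filter on low counts, Zelda exceeded the highest of the 12 other tumours in 17 of 24 neutrophil genes, 12 of 16 platelet genes, 17 of 19 B cell genes and 20 of 21 T and NK cell genes. N25 lung did so in 13, 12, 16 and 16 of these genes. N43 spine did so in 7, 5, 2 and 2, and N43 pelvis in 10, 6, 2 and 0. Over all 24985 genes outside the erythroid list, the share above the others was 11.8% in Zelda, 10.9% in N25 lung, 7.24% in N43 spine and 4.31% in N43 pelvis. In the N43 tumours the blood genes above the others were thus mainly those of granulocytes and platelets, and in Zelda and N25 lung they covered all 4 lists.

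**Figure D4:**
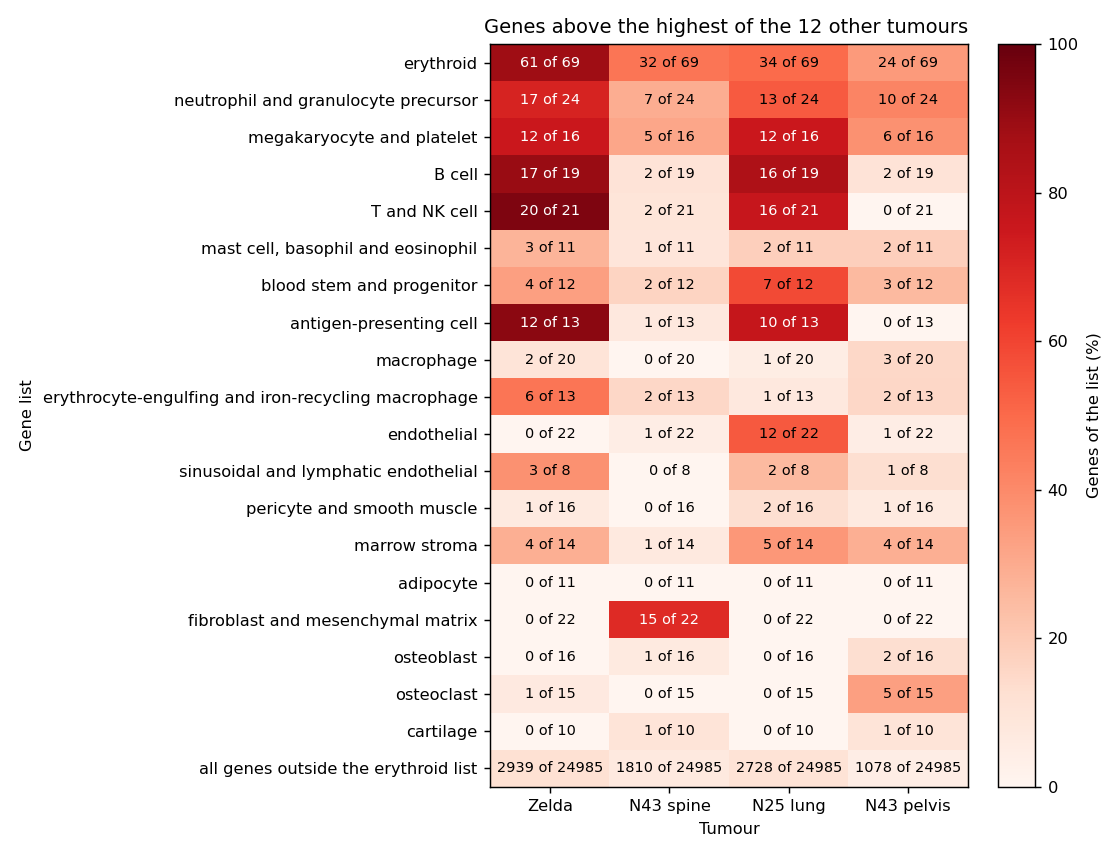
For each gene list (rows) and each Alas2-high tumour (columns), the number of genes above the highest of the 12 other tumours, out of all genes of the list in the table, with the colour giving the percent. Zelda and N25 lung exceed the others in most B cell and T cell genes (17 and 16 of 19, 20 and 16 of 21), the N43 tumours in at most 2 of either list.

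Genes of antigen presentation had positive log2 differences in 11 of 11 tested genes, with a median of 1.97. None passed the threshold, though 10 had an unadjusted p-value under 0.05 and DESeq2 called 3. Of the 11 genes, 9 passed the count minimum in the others alone (median 1.97). *H2-Aa*, an MHC class II chain, was at 397 CPM in Zelda, 115 CPM in N43 spine, 226 CPM in N25 lung and 40.0 CPM in N43 pelvis, against 20.2 to 143 CPM (log2 difference 1.95, SE 0.46, edgeR adjusted p = 0.102). *H2-Ob*, a class II accessory gene of B cells outside the list, was at 105.5 CPM in Zelda and 15.7 CPM in N25 lung, and at 0.442 and 0.503 CPM in N43 spine and pelvis (edgeR adjusted p = 0.0169). In the list of blood stem and progenitor genes 9 of 10 tested genes had a positive log2 difference, with a median of 0.69. In edgeR 0 passed the threshold and 2 had an unadjusted p-value under 0.05, and DESeq2 called 1. Over the 8 stem and progenitor genes that passed the count minimum in the others alone the median was 0.58. *Myb*, which proliferating progenitors express, was at 32.04 CPM in Zelda and 49.8 CPM in N25 lung, and at 0.387 and 0.402 CPM in N43 spine and pelvis. In Massa, which with N25 lung had the highest sums of lung epithelium genes, *Myb* was at 31.6 CPM. Which cells gave this RNA was not tested. In the list of mast cells, basophils and eosinophils 4 of 6 tested genes had a positive log2 difference and 0 passed in edgeR or DESeq2, with 1 at an unadjusted p-value under 0.05.

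Macrophage genes did not follow the split. Of 20 tested genes, 12 had a positive and 8 a negative log2 difference, with a median of 0.10, and 0 passed the threshold in edgeR or DESeq2, with 1 at an unadjusted p-value under 0.05. *Csf1r*, the receptor that macrophages depend on, was at 123 CPM in Zelda, 246 CPM in N43 spine, 83.2 CPM in N25 lung and 480.4 CPM in N43 pelvis, against 27.3 to 506 CPM. Among genes of macrophages that engulf red cells and recycle their iron, 10 of 11 tested genes had a positive log2 difference with a median of 0.72, and 1 passed the threshold. This was *Slc40a1*, the iron exporter ferroportin, at 249.7 CPM in Zelda, 165 CPM in N43 spine, 22.5 CPM in N25 lung and 31.4 CPM in N43 pelvis, against 2.10 to 29.3 CPM (log2 difference 2.66, SE 0.51, edgeR adjusted p = 0.0320). Only Zelda and N43 spine stood well above the others. *Spic*, *Timd4* and *Cd5l*, of macrophages in spleen and liver, were at 31.97, 17.1 and 26.7 CPM in Zelda and at most 1.90 CPM in the other 3. *Timd4* and *Cd5l* were too low in most tumours to be tested. Without Zelda the median of this list was -0.19.

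**Figure D5:**
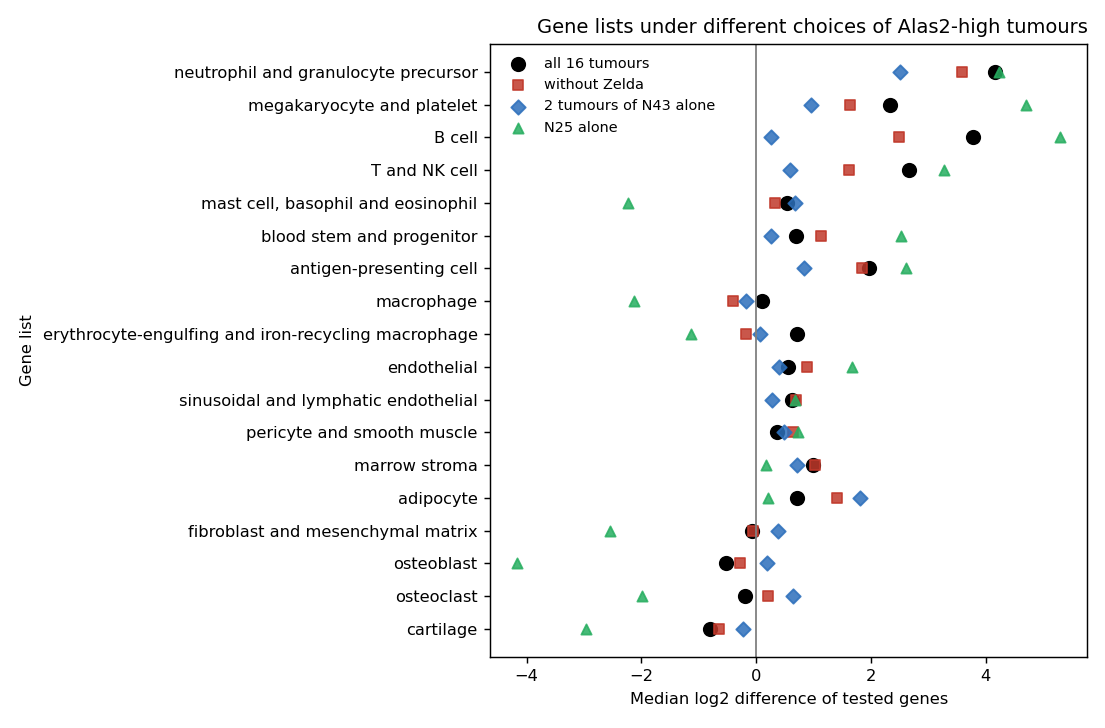
Median log2 difference, Alas2-high minus other tumours, of the tested genes of each list. Black circles use all 16 tumours, red squares leave out Zelda, blue diamonds keep the 2 tumours of N43 as the only Alas2-high samples and green triangles keep N25. The B cell median is 3.77 with all tumours, 0.25 with N43 alone and 5.30 with N25 alone, and the osteoblast median is -4.16 with N25 alone and 0.20 with N43 alone.

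No vessel gene passed the threshold. Of 22 endothelial genes, 19 had a positive log2 difference, with a median of 0.55, and 3 had an unadjusted p-value under 0.05, while DESeq2 called 0. N25 lung was above all 12 other tumours in 12 of the 22, Zelda in 0 and each N43 tumour in 1. *Vwf*, the von Willebrand factor of endothelium and platelets, was at 784 CPM in N25 lung, 48.5 CPM in Zelda, 55.8 CPM in N43 spine and 31.4 CPM in N43 pelvis, against 4.24 to 217 CPM (edgeR adjusted p = 0.768). *Cdh5*, the cadherin of endothelial junctions, was at 317, 58.3, 93.6 and 114 CPM in the same order, against 13.5 to 168 CPM (edgeR adjusted p = 0.988). Without N25 lung the median of the list was 0.098.

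Of 8 genes of sinusoidal and lymphatic endothelium all had a positive log2 difference, with a median of 0.62, and 0 passed in edgeR or DESeq2, with 2 at an unadjusted p-value under 0.05. The scavenger receptor genes of sinusoids split between tumours. *Stab1*, also expressed by macrophages, was at 390 CPM in N43 spine and 586 CPM in N43 pelvis but at 99.1 CPM in Zelda and 89.9 CPM in N25 lung, against 25.2 to 479 CPM. *Stab2* was at 274 CPM in Zelda, 1.05 CPM in N43 spine, 1.64 CPM in N25 lung and 10.6 CPM in N43 pelvis, against at most 45.2 CPM. Of 16 genes of pericytes and smooth muscle, 10 had a positive log2 difference with a median of 0.36. In edgeR and DESeq2 0 passed, also at an unadjusted p-value under 0.05 in edgeR. Over the 15 that passed the count minimum in the others alone the median was 0.34.

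Genes of marrow stroma, the cells that support blood formation, had positive log2 differences in 11 of 14, with a median of 0.99. Over the 13 that passed the count minimum in the others alone the median was 0.93. The counts that follow are over all 14. None passed the threshold, 7 had an unadjusted p-value under 0.05, and DESeq2 called 1. *Lepr*, the leptin receptor that marks perivascular stroma, was at 684 CPM in Zelda, 599 CPM in N43 spine, 83.1 CPM in N25 lung and 678 CPM in N43 pelvis (log2 difference 2.55, SE 0.84, edgeR adjusted p = 0.393). The others ranged from 4.26 to 601 CPM, with N42 L shoulder at the top, so the groups overlapped. *Cxcl12*, the chemokine that retains stem cells in the marrow, was at 116, 92.0, 200.1 and 363 CPM in the order Zelda, N43 spine, N25 lung and N43 pelvis, against at most 199.6 CPM. The 10 tested adipocyte genes all had a positive log2 difference with a median of 0.71, which was -1.13 without the N43 tumours. In edgeR and DESeq2 0 passed, also at an unadjusted p-value under 0.05 in edgeR. Over the 9 adipocyte genes that passed the count minimum in the others alone the median was 0.69.

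Genes of matrix, bone and cartilage cells were mixed in direction in the fibroblast and osteoclast lists and mostly lower in the osteoblast and cartilage lists. Of 22 fibroblast and matrix genes, 11 had a positive and 11 a negative log2 difference (median -0.071), and of 16 osteoblast genes 3 and 13 (median -0.53). Of 15 osteoclast genes it was 7 and 8 (median -0.20), and of 8 cartilage genes 2 and 6 (median -0.81). Over the 7 cartilage genes that passed the count minimum in the others alone the median was -0.79. None of these genes passed the threshold in edgeR, 1 osteoclast gene had an unadjusted p-value under 0.05, and DESeq2 called 1 osteoclast gene. The *Alas2*-high tumours covered a wide range. *Col1a1*, the main collagen of bone, was at 31490 CPM in N43 spine and 33840 CPM in N43 pelvis, at 5923 CPM in Zelda and at 1529 CPM in N25 lung, against 211 to 48380 CPM. *Ctsk*, the collagen-degrading protease of osteoclasts, was at 637 and 1398 CPM in N43 spine and pelvis, and at 27.1 CPM in Zelda and 47.2 CPM in N25 lung. Both genes were thus lower in Zelda and N25 lung than in either N43 tumour.

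The remaining called genes were named after their values were seen. *E2f2*, an E2F factor used in red cell maturation, was at 116 CPM in Zelda, 18.1 CPM in N43 spine, 31.2 CPM in N25 lung and 12.9 CPM in N43 pelvis, against 2.24 to 16.8 CPM (log2 difference 2.73, SE 0.46, edgeR adjusted p = 0.0138). *Wt1* and *Fmo4*, a transcription factor and a flavin monooxygenase gene, were highest in N43 spine at 10.2 and 7.19 CPM. *Cd226*, a receptor of T cells, NK cells and platelets, was at 36.4 CPM in Zelda and 19.5 CPM in N25 lung, and at 0.719 and 0.855 CPM in the N43 tumours. In all, 12 of the 33 genes were members of the fixed lists and 21 were not, and 28 were protein coding.

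Among the other 12 tumours, *Alas2* spanned 0.012 to 4.64 on the log2 CPM scale (prior count 2), which allowed a check in samples the split had placed together. No gene outside the erythroid list followed the slope on *Alas2* at an adjusted p-value under 0.05 in edgeR (0% of 17464 in either direction). The unadjusted p-value in edgeR was under 0.05 for 2255 genes, and DESeq2 called 787 at an adjusted p-value under 0.05. Of the 33 genes above, 20 could be tested, 12 had a positive and 8 a negative slope, and 0 had an unadjusted p-value under 0.05 (DESeq2: 3 of 33). The erythroid list, as a description, had a positive slope in 35 of 47 genes with a median of 0.22. Adipocyte genes had a positive slope in 9 of 9 (median 0.95), endothelial genes in 21 of 22 (median 0.26), fibroblast and matrix genes in 1 of 22 (median -0.28), skeletal muscle genes in 10 of 10 (median 2.079), osteoblast genes in 0 of 16 (median -0.86) and genes of proliferating cells in 0 of 10 (median -1.11). The median over all tested genes was -0.015. Montana and Oregon, with the highest muscle sums, had *Alas2* at 24.7 and 9.26 CPM, and the part of muscle in these slopes was not tested. *Alas2* rested on 4 counts in Massa, 4 in Medusa and 5 in Grilka, so slopes can go undetected here, and a result of 0 does not show that genes are unrelated to low *Alas2*.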

How the data were processed

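RNA of 16 tumours was rRNA-depleted and sequenced from 1 end. Per the study's methods, the authors aligned reads to mm10 with Ensembl splice junctions using Novoalign 2.08.01, kept the best alignments and counted reads per gene with USeq. They deposited raw counts per gene, not normalized, and ran DESeq2 1.26.0. Strand was not given in the sources used here, so overlapping and antisense genes may share reads.

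The table held 25054 genes, of which 24974 were found in GENCODE vM21. Tumours were split by *Alas2* at 50 CPM of the raw column total. Counts were fitted with edgeR 4.0.16 (TMM, filterByExpr with minimum count 10 and minimum total 15, glmQLFit and glmQLFTest, two-sided) in R 4.3.3 with the terms genotype and split, and Benjamini-Hochberg adjustment at 0.05 over all 17468 tested genes. The 7586 genes left out had low counts. SE is the log2 difference divided by the square root of F. DESeq2 1.42.0 and limma 3.58.1 were alternatives. The fits were tested on simulated data, where the slope fit called 0 of 97 genes with a slope of 0.5 and 22 of 97 with a slope of 1. Python 3.11.15 drew the figures.

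Genes were named by rule: *Alas2*, *Hbb-bs*, *Slc4a1* and abundant erythroid genes, up to 3 most abundant and up to 3 called members of each list, and up to 5 called genes whose groups do not overlap. Other genes named were chosen after their values were seen. The members and lists were chosen with earlier results of these data known, and some genes belong to 2 lists (such as *Vcam1* and *Mmp9*). Tumours with the same animal code were taken as 1 mouse. Most mice gave 1 tumour. The p-values treat tumours of N42 and N43 as separate samples, except in the fits with the mouse as a random effect or counts summed per mouse. Floors cover counting error only. The results of some genes covered by these rules are not reported here.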

Additional observations from a re-analysis of the deposited data

Results flagged for a closer look

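On the log2 CPM scale (prior count 2), *Lepr* was the only one of 84 genes examined in which 1 of the 4 *Alas2*-high tumours stood apart from the other 3 by more than Dixon's 95% critical value for 4 samples. On that scale the gap between N25 lung, the lowest, and the next tumour was 0.937 of the range of the 4. On the linear CPM scale other genes would pass this value. Chance gives about 1 such gene in 20.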

How the results depend on the processing

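The 33 called genes became 415 with DESeq2 (396 higher, 19 lower, 28 of the 33 among them), 14 with limma-voom and the mouse as a random effect (correlation within mice 0.744), 9 with counts summed per mouse, 297 with no filter on low counts, 14 with library size as a covariate and 0 in WT tumours alone. They became 18 without N25 lung, 348 without both tumours of N43 and 21 (20 higher, 1 lower) without 5 KO tumours chosen for raised genes of another tissue (Massa, Montana, Prince, Grilka and Oregon). Leaving out 1 tumour at a time gave 0 to 99, with 0 without Zelda, 18 without N25 lung, 19 without N42 L shoulder, 51 without Massa, 56 without N215 R hind limb, 86 without N43 spine and 99 without N43 pelvis. In 2 alternatives chosen after seeing the data, the N43 tumours as the only *Alas2*-high samples gave 0 and N25 lung alone gave 198, assuming that the lone sample varies like the others. RLE size factors (41), removal of the erythroid genes before normalization (23), no genotype term (36) and *Alas2* as a continuous predictor (31) stayed within 1.5 times of 33. The cause was not tested. The slope on *Alas2* among the other 12 tumours called 787 genes with DESeq2 and 0 in the 14 other alternatives, leaving out each of the 12 included (0 to 0). No named gene that passed the threshold changed direction, and 38 of the 63 named genes changed sign in at least 1 alternative. An interaction of genotype and split rests on Zelda, the only KO tumour in the *Alas2*-high group, so it cannot decide whether genes go with the split alike in both genotypes. No paired analysis was possible because no mouse gave tumours to both groups. The depth of Massa and Grilka limits what can be said of low genes in the other tumours.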
